A study of Homo sapiens with 12 samples.

Results

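The plasminogen activators, their receptor, their substrate and 3 of their inhibitors were followed in 2 human hepatocellular carcinoma cell lines with raised or unchanged miR-628-3p. The set comprised 7 genes of the 60664 in the expression table, matched by symbol: PLAT, PLAU, PLAUR, PLG, SERPINE2, SERPINF2 and SERPINB2. All 7 were found in the table. The 4 groups had 3 libraries each. They were Huh7 cells transfected with a mimic of miR-628-3p, Huh7 cells with a negative-control mimic, MHCC97H cells with the miR-628-3p expression vector pGreen-628, and MHCC97H cells with the empty vector. Neither line is labelled as genetically modified in any other way, and no time after transfection is given. The microRNA came as a synthetic RNA in Huh7 and from a vector in MHCC97H, so line and delivery cannot be told apart. Whether the vector-carrying cells were a clone or a pool is not stated.

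Plasminogen is a liver-made zymogen that circulates in blood and becomes the protease plasmin when it is cleaved by tissue plasminogen activator (PLAT) or by urokinase (PLAU). Urokinase acts at the cell surface, where it is held by its receptor (PLAUR), and plasmin then degrades fibrin and matrix proteins. Serpins check the system: protease nexin-1 (SERPINE2) and plasminogen activator inhibitor-2 (SERPINB2) block the activators, and α2-antiplasmin (SERPINF2), a product of hepatocytes, blocks plasmin itself. In liver tumours the urokinase system is best known from work on invasion and matrix turnover.

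MicroRNAs pair with messenger RNAs mainly through their seed, bases 2 to 8, which is in capitals in the mature sequence of miR-628-3p below (RefSeq, GRCh38.p14, chr15:55372954-55372974, minus strand), shown because it defines the site searched in the 7 genes.
miR-628-3p: uCUAGUAAgaguggcagucga
The match to this seed, TTACTAG, was absent from the longest annotated 3′ UTR of all 7 genes (GENCODE release 29), and so was the shorter match to bases 2 to 7, TACTAG. These UTRs were 585 to 932 bases long, shorter than the median of 1335 bases over the 19432 UTRs searched, of which 6.922% held TTACTAG and 17.559% held TACTAG. In the longest transcripts, 1 match to TTACTAG was found, in SERPINE2, whose transcript had 5989 bases. A match was present in 9.995% of the longest transcripts of 19820 protein-coding genes. No match says only that these letters are not in the annotated windows.

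Promoter windows running from 250 bases before to 50 after a transcription start are shown for urokinase and its receptor, a ligand and receptor whose messenger RNAs did not move alike in MHCC97H (RefSeq, GRCh38.p14). Capitals mark GGGCGG, the letters of a GC box, and TGANTCA, those of an AP-1 site, searched on both strands.
PLAU, chr10:73910882-73911181, plus strand: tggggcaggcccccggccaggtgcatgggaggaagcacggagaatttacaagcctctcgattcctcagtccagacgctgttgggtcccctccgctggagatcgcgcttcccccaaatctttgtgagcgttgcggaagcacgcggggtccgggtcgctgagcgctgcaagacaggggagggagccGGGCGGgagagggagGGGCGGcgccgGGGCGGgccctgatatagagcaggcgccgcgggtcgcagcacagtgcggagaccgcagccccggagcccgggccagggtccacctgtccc
PLAUR, chr19:43670120-43670419, minus strand: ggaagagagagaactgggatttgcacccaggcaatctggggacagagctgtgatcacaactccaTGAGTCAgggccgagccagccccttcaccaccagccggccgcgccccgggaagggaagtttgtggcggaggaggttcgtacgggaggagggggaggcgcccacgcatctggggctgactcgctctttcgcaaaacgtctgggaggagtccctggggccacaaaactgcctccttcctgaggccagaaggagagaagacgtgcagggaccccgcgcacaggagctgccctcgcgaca
The PLAU window held GGGCGG 3 times, between positions -66 and -40 from the start, and no TGANTCA. The PLAUR window held TGANTCA once, at position -186, and no GGGCGG. Among 35116 promoter windows of this length, 44.954% held GGGCGG and 7.709% held TGANTCA. A second annotated PLAU window, chr10:73910360-73910659, held neither. Any part of these letters in the levels of PLAU and PLAUR was not tested.

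Messenger RNA levels are given as FPKM, fragments per kilobase of exon scaled to the depth of the library, as the authors deposited them. FPKM corrects for length, so levels of different genes can be set side by side. The libraries held 16472932 to 19578875 reads each. The row of the MIR628 gene held 0 reads in all 12 libraries. Poly-A selected libraries do not measure a mature microRNA, so its level was not analysed here. Of 10 hepatocyte markers, 9 reached a mean of 1 FPKM in both Huh7 groups, with summed levels of 11470 to 12730 FPKM in mimic libraries and 10530 to 11410 FPKM in control libraries. In MHCC97H 7 did so with the miR-628-3p vector, with sums of 61.7 to 67.5 FPKM, and 6 with the empty vector, with sums of 36.3 to 39.1 FPKM. MHCC97H libraries thus held little RNA of these markers, and APOA1, TAT and CYP3A4 stayed under 1 FPKM in each of them. CYP3A4 was under 1 FPKM in every Huh7 library as well. In bulk libraries, fewer cells of a type and less RNA per cell cannot be told apart. Across genes, miR-628-3p vector libraries 2 and 3 of MHCC97H lay further apart than any other pair of replicates (chi-square of 34.5 per degree of freedom, against 1.93 to 12.5 for the others). The tests of PLAT and PLAU in MHCC97H are therefore also given without each of them. Sums and ratios of genes are given with all libraries only.

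Before the response to miR-628-3p, the resting lines already differed in most of the system. MHCC97H cells with the empty vector had more of both activators, of the urokinase receptor and of protease nexin-1 than Huh7 cells with the control mimic, and less α2-antiplasmin. PLAT (ENSG00000104368, chromosome 8, 42174718 to 42207709) had 32.3, 34.4 and 32.6 FPKM in MHCC97H vector libraries, against 0.559, 0.903 and 0.971 FPKM in Huh7 control libraries. The lines were far apart, since the Huh7 values rested on 30 to 53 reads per library and the MHCC97H values on 1690 to 1821 reads. On the log2(FPKM + 1) scale used for all tests here, the difference was 4.24 (SE 0.0922, limma adjusted p = 1.02e-08).

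PLAUR (ENSG00000011422, chromosome 19, 43646095 to 43670547) had 17.0, 17.6 and 16.0 FPKM in MHCC97H vector libraries, against 1.21, 1.22 and 0.932 FPKM in Huh7 control libraries, a log2 difference of 3.08. PLAU (ENSG00000122861, chromosome 10, 73909177 to 73917496) had 8.04, 8.34 and 8.23 FPKM in MHCC97H vector libraries and 2.27, 1.74 and 2.20 FPKM in Huh7 control libraries, a log2 difference of 1.59. Receptor and ligand were thus both higher in MHCC97H, in groups that did not overlap. SERPINE2 (ENSG00000135919, chromosome 2, 223975045 to 224039318) had 167, 153 and 160 FPKM in MHCC97H vector libraries, against 42.7, 41.5 and 40.4 FPKM in Huh7 control libraries, a log2 difference of 1.92. SERPINF2 (ENSG00000167711, chromosome 17, 1742836 to 1755265) ran the other way, with 0.677, 0.801 and 0.901 FPKM in MHCC97H vector libraries and 18.6, 18.6 and 16.4 FPKM in Huh7 control libraries, a log2 difference of -3.39. The low level of this hepatocyte serpin in MHCC97H stood beside the low summed level of hepatocyte markers there, whose part in it was not tested.

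All 5 genes that could be tested between the control libraries passed at an adjusted p under 0.05, with 4 higher and 1 lower in MHCC97H (limma adjusted p between 1.02e-08 and 6.14e-07). Of all 13191 genes tested in this comparison, 84.5% passed, 42.3% higher and 42.2% lower, and 85.5% had groups that did not overlap, 43.0% higher and 42.5% lower. A count of 5 of 5 is therefore near what expressed genes in general gave. Line and vector or mimic cannot be told apart here.

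Within the lines the order of levels differed as well. In MHCC97H with the empty vector, SERPINE2 was followed by PLAT, PLAUR, PLAU and SERPINF2, and no neighbours in this order overlapped. With the miR-628-3p vector PLAUR stood above PLAT, and the order was otherwise the same, again with no overlap. In both Huh7 groups SERPINE2 was followed by SERPINF2, PLAU, PLAUR and PLAT. There PLAUR and PLAT overlapped in the control libraries, so their order was not resolved.

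**Figure D1:**
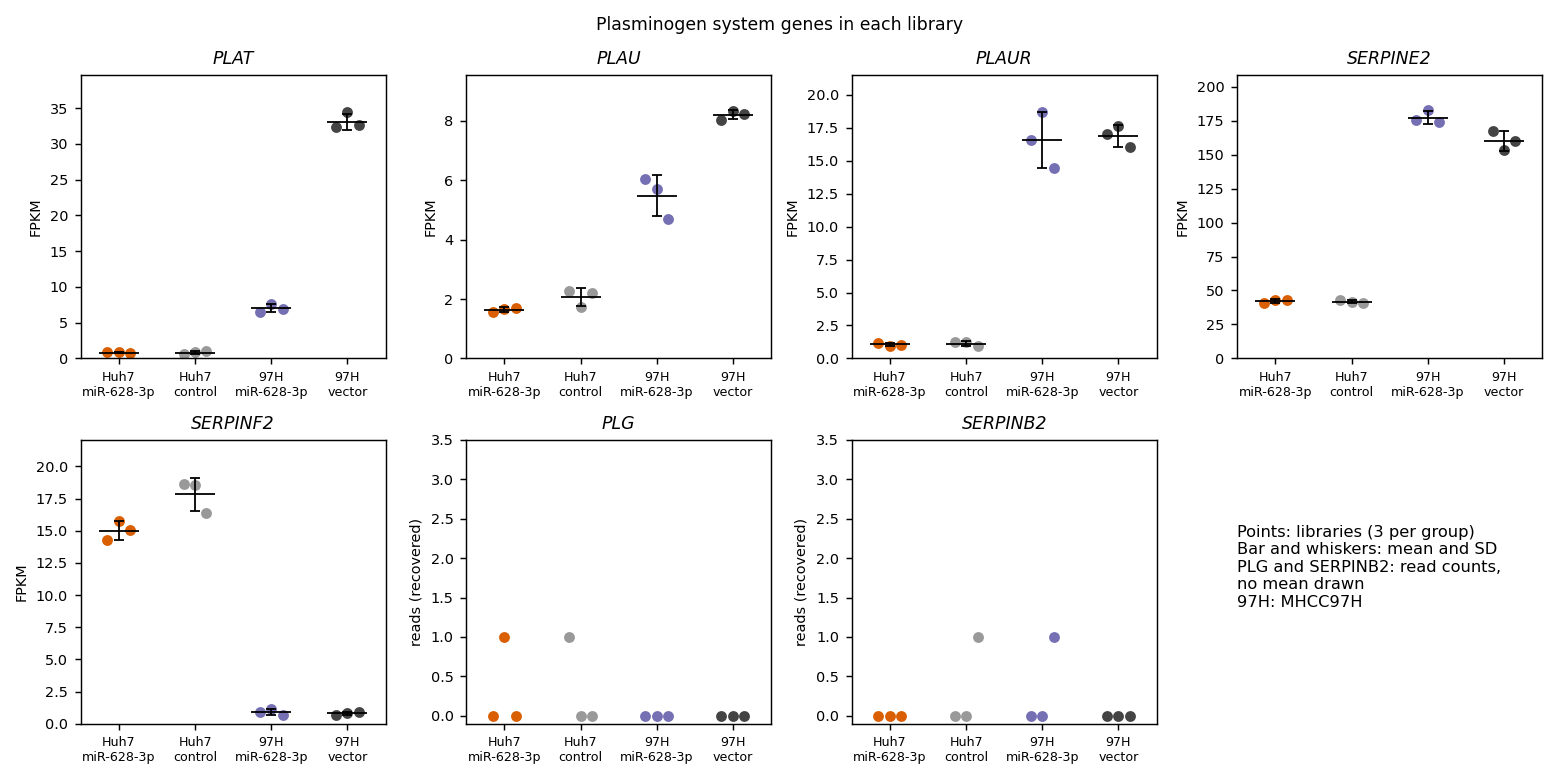
Levels of the 7 genes by library. The vertical axes give FPKM, or recovered reads for PLG and SERPINB2. The horizontal axes give the 4 groups, points are libraries, and bars with whiskers are the mean and SD of 3. PLAT in MHCC97H was between 6.49 and 7.61 FPKM with the miR-628-3p vector and between 32.3 and 34.4 FPKM with the empty vector, and PLG and SERPINB2 had at most 1 read in any library.

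Plasminogen itself was not detectable at this depth. PLG (ENSG00000122194, chromosome 6, 160702238 to 160754097), the zymogen both activators cleave, had 1 read in Huh7 mimic library 2, 1 read in Huh7 control library 1 and 0 reads in the other 10 libraries. SERPINB2 (ENSG00000197632, chromosome 18, 63871692 to 63903888), which inhibits urokinase and is induced in inflammation, had 1 read in Huh7 control library 3, 1 read in MHCC97H miR-628-3p vector library 3 and 0 reads in the other 10. Both genes stayed under the 3 reads that a count of 0 allows in every library, so no fold change is given. SERPINB10, which overlaps SERPINB2 on the same strand, had 0 reads.

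In MHCC97H both plasminogen activators fell with the miR-628-3p vector, while their receptor and the 2 expressed inhibitors did not pass the test or were not tested. PLAT had 6.49, 7.61 and 6.93 FPKM in miR-628-3p vector libraries, against 32.3, 34.4 and 32.6 FPKM in empty vector libraries. The highest miR-628-3p library was far below the lowest vector library, on 329 to 448 reads against 1690 to 1821 reads. The means were 7.01 ± 0.562 FPKM with miR-628-3p and 33.1 ± 1.13 FPKM with the empty vector (SD, n = 3 each). The log2 fold change was -2.09 (SE 0.0729, 95% interval -2.26 to -1.92, limma adjusted p = 6.99e-05), a ratio of 0.235 on the log2(FPKM + 1) scale. PLAT ranked 1 of 12670 genes by p and 3 by size of fall. Without miR-628-3p vector library 2 the log2 fold change was -2.14 (adjusted p = 7.65e-05), and without library 3 it was -2.09 (adjusted p = 0.000217).

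Endothelial cells are a main source of tissue plasminogen activator in the body. Of 6 endothelial markers, EMCN was at 0 in all MHCC97H libraries, CDH5, TEK and VWF stayed under 1 FPKM, and the summed level was 9.03 to 9.54 FPKM with the miR-628-3p vector and 5.87 to 6.67 FPKM with the empty vector. Most of the sum came from PECAM1, with 7.35 ± 0.263 FPKM with the miR-628-3p vector and 4.34 ± 0.235 FPKM with the empty vector, and KDR had 1.67 ± 0.0834 FPKM and 1.62 ± 0.206 FPKM in these groups (SD, n = 3 each). The part of these markers in the PLAT result was not tested.

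PLAU, the urokinase gene, had 6.03, 5.70 and 4.70 FPKM in miR-628-3p vector libraries, against 8.04, 8.34 and 8.23 FPKM in empty vector libraries. The groups did not overlap, and library 3 was the lowest of the miR-628-3p libraries. The means were 5.48 ± 0.693 FPKM with miR-628-3p and 8.20 ± 0.149 FPKM with the empty vector (SD, n = 3 each). The log2 fold change was -0.51 (SE 0.0915, 95% interval -0.73 to -0.30, limma adjusted p = 0.0234). This call was weaker than that of PLAT: it was lost without miR-628-3p vector library 1 (adjusted p = 0.0597), without vector library 1, 2 or 3 (adjusted p up to 0.122), and with no filter on low expression (adjusted p = 0.0691). Without miR-628-3p vector libraries 2 and 3 in turn it held, at adjusted p = 0.0302 and 0.0105. A long noncoding gene on the opposite strand, C10orf55, overlaps PLAU and had at most 8 reads in any library, against 202 to 352 reads for PLAU in MHCC97H.

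PLAUR, which anchors urokinase to the membrane, had 16.6, 18.7 and 14.5 FPKM in miR-628-3p vector libraries and 17.0, 17.6 and 16.0 FPKM in empty vector libraries. The groups overlapped fully, with the highest and the lowest value both in miR-628-3p libraries. The log2 fold change was -0.03 (95% interval -0.26 to 0.19, limma adjusted p = 0.882). The interval leaves room for a fall or a rise of this size, but not for one as large as that of PLAU.

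Of the inhibitors, SERPINE2 had 175, 183 and 174 FPKM in miR-628-3p vector libraries and 167, 153 and 160 FPKM in empty vector libraries. Each miR-628-3p library was above each vector library. The log2 fold change was 0.15 (SE 0.0600, 95% interval 0.01 to 0.29), and it did not pass over all genes (limma adjusted p = 0.207). With each library corrected for GC content and exon length it was 0.26 and passed (adjusted p = 0.0387). SERPINF2 had 0.940, 1.11 and 0.679 FPKM in miR-628-3p vector libraries and 0.677, 0.801 and 0.901 FPKM in empty vector libraries. These overlapping values rested on 26 to 48 reads per library, and the gene's mean was under the 1 FPKM needed for a test in this line.

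Thus 4 of the 7 genes were tested in MHCC97H, 2 were called lower and 0 higher. Over all 12670 genes tested, 5.37% were called, 3.05% lower and 2.32% higher, which is 386 and 294 genes, against 330 lower and 384 higher with median rescaling. The median log2 fold change of the 4 genes was -0.27, against -0.04 over all genes tested. Groups did not overlap for 3 of the 4, PLAT, PLAU and SERPINE2, against 30.0% of all genes tested.

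In Huh7 the only one of these genes to pass was SERPINF2, which was lower with the mimic, and that call depended on the processing. SERPINF2 had 14.3, 15.7 and 15.1 FPKM in mimic libraries, against 18.6, 18.6 and 16.4 FPKM in control libraries. The groups did not overlap, although mimic library 2 and control library 3 lay close. The means were 15.0 ± 0.733 FPKM with the mimic and 17.8 ± 1.29 FPKM with the control (SD, n = 3 each), and the log2 fold change was -0.23 (SE 0.0670, 95% interval -0.39 to -0.08, limma adjusted p = 0.0445). The call was lost when any one of 5 of the 6 libraries was left out (adjusted p between 0.0742 and 0.109), and it held without control library 3 (adjusted p = 0.0419). Without mimic library 1, 2 or 3 or control library 2, at most 4 genes were called over all genes, against 2642 with all libraries. The loss in those fits is thus not particular to SERPINF2.

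Base composition moved with this result. Across all genes tested in Huh7, GC content of the transcript and fold change had a Spearman rho of -0.720, a description over genes that share the same libraries, and SERPINF2 had the highest GC content of the 7 genes, 61.5%, against a median of 47.1% over the genes tested. After each library was corrected for GC content and length, its log2 fold change was -0.01 (limma adjusted p = 0.915). In MHCC97H the rho was 0.172, and the log2 fold changes of PLAT and PLAU after the correction were -2.06 and -0.48 (adjusted p = 8.22e-06 and 0.00218).

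PLAU in Huh7 had 1.55, 1.67 and 1.70 FPKM in mimic libraries and 2.27, 1.74 and 2.20 FPKM in control libraries. The groups did not overlap, but mimic library 3 and control library 2 nearly touched, on 62 to 93 reads per library. The log2 fold change was -0.21 (SE 0.0921, 95% interval -0.42 to -0.00015, limma adjusted p = 0.119), and -0.06 after the GC and length correction. The value did not pass the test.

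PLAT in Huh7 had 0.844, 0.845 and 0.734 FPKM in mimic libraries and 0.559, 0.903 and 0.971 FPKM in control libraries. The mimic libraries lay inside the range of the control libraries. The mean was under the 1 FPKM needed for the test. With no expression filter the log2 fold change was 0.0040 (SE 0.111, limma adjusted p = 0.999).

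PLAUR in Huh7 had 1.16, 0.967 and 1.05 FPKM in mimic libraries and 1.21, 1.22 and 0.932 FPKM in control libraries, overlapping values on 21 to 32 reads. Its log2 fold change was -0.04 (95% interval -0.26 to 0.18, limma adjusted p = 0.761). SERPINE2 had 40.6, 43.3 and 43.2 FPKM in mimic libraries and 42.7, 41.5 and 40.4 FPKM in control libraries, which overlapped too. Its log2 fold change was 0.03 (95% interval -0.09 to 0.14, limma adjusted p = 0.693), the narrowest interval of the 4.

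Thus 4 of the 7 genes were tested in Huh7, 1 was called lower and 0 higher, beside 21.1% of 12508 genes called, 14.4% lower and 6.75% higher. This is 1798 lower and 844 higher, against 1158 lower and 1141 higher with median rescaling. A share of 1 in 4 is near that background. Groups did not overlap for PLAU and SERPINF2, 2 of the 4, against 48.8% of all genes tested. The median log2 fold change of the 4 genes was -0.13, against -0.05 over all genes tested.

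**Figure D2:**
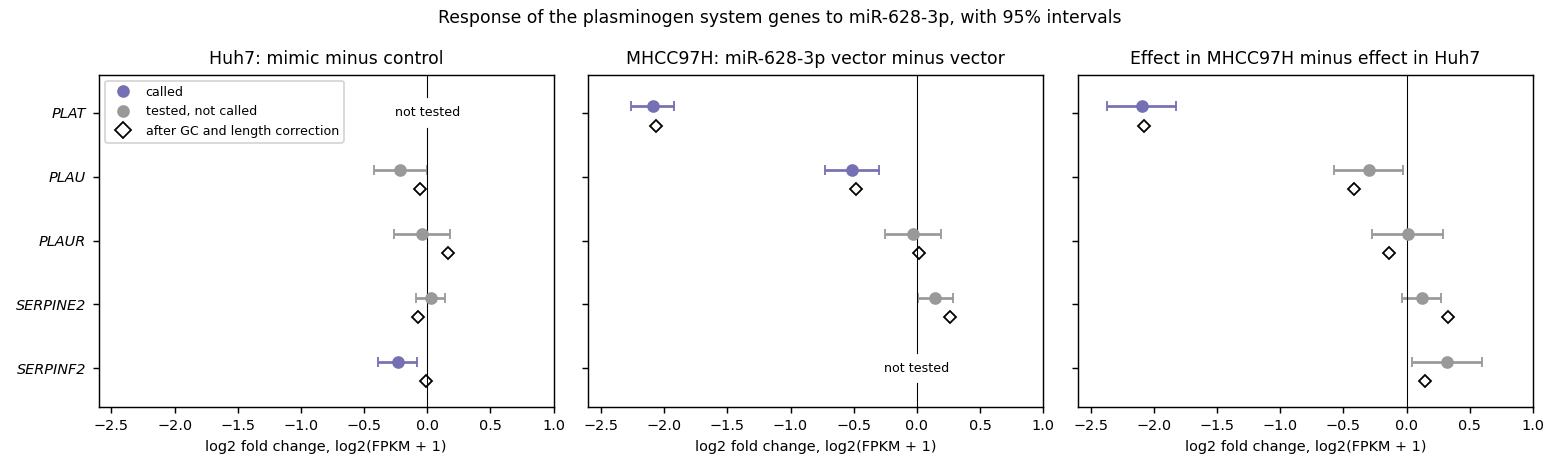
Log2 fold changes of the 5 genes that could be tested, in Huh7, in MHCC97H and for the contrast of the lines (MHCC97H minus Huh7). Horizontal axes give log2 fold change on the log2(FPKM + 1) scale, filled points with whiskers are the estimate and its 95% interval, coloured where the adjusted p is under 0.05, and open diamonds are the values after GC and length correction. PLAT in MHCC97H lay at -2.09 and at -2.06 after the correction, while SERPINF2 in Huh7 lay at -0.23 and at -0.01 after it.

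**Figure D3:**
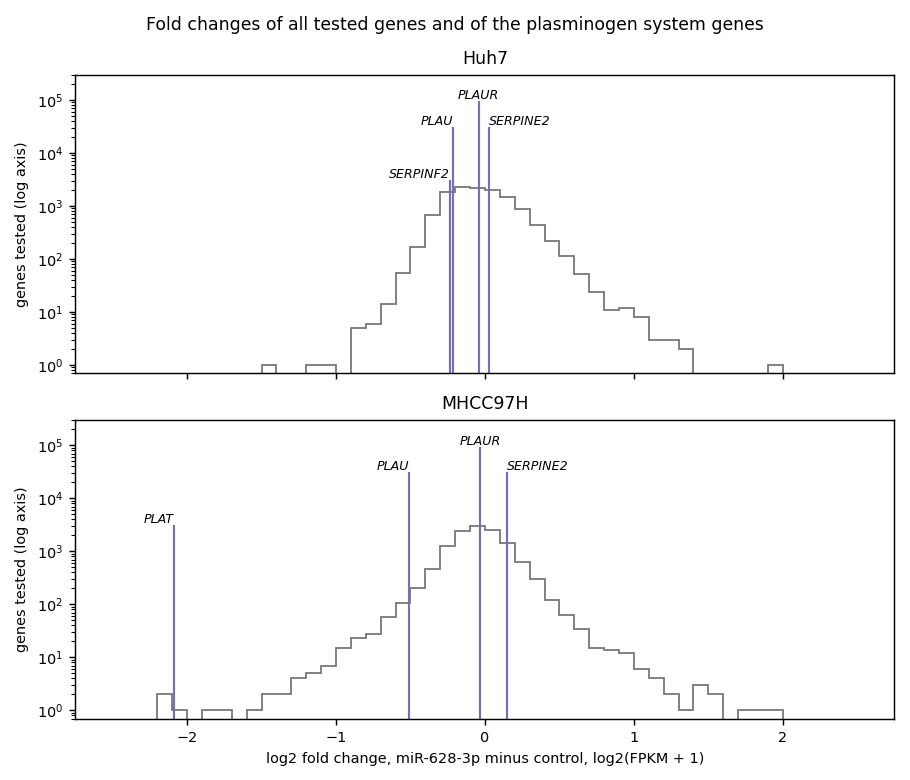
Fold changes of the tested genes of the system within those of all genes tested in each line. The horizontal axis gives log2 fold change, miR-628-3p minus control, and the vertical axis the number of genes in bins of 0.1 on a log scale. Vertical lines mark the genes by position, and their heights carry no value. PLAT at -2.09 lay in the far lower tail in MHCC97H, PLAU at -0.51 in its shoulder, and the 4 genes tested in Huh7 lay within the main body.

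The difference between the lines was tested for 5 genes as an interaction over the 12 libraries. For PLAT the effect in MHCC97H minus that in Huh7 was -2.10 on the log2 scale (SE 0.125, 95% interval -2.37 to -1.82, limma adjusted p = 4.97e-06). PLAT entered this test only through MHCC97H. In Huh7 it was under 1 FPKM, where adding 1 before the log leaves little room for a fall. The value thus largely restates the fall in MHCC97H and does not show that the response of the lines differed. With 0.1 added instead of 1 the difference was -2.25 (limma adjusted p = 0.000264), and by limma voom on reads it was -2.26 (adjusted p = 0.000178). In these fits too PLAT entered only through MHCC97H, and its Huh7 values rested on 30 to 53 reads per library. For PLAU the difference was -0.30 (95% interval -0.57 to -0.03, limma adjusted p = 0.121), so a difference between the lines was not shown, although PLAU passed in MHCC97H and not in Huh7. For PLAUR the difference was 0.01 (95% interval -0.27 to 0.29), for SERPINE2 0.12 (-0.04 to 0.27) and for SERPINF2 0.32 (0.04 to 0.60), none of them called (limma adjusted p = 0.962, 0.262 and 0.108). Of the 5 genes 1, PLAT, was thus called, lower, and 0 of the 3 that reached the level for a test in both lines (PLAU, PLAUR and SERPINE2), beside 12.9% of 13171 genes called, 5.43% lower and 7.43% higher. After GC and length correction PLAU, at -0.42, and SERPINE2, at 0.33, were called as well (limma adjusted p = 0.0179 and 0.0426). With that correction 2007 of all 13125 genes tested were called.

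The falls of both activators changed the balance of messenger RNAs within the system in MHCC97H. PLAT and PLAU together had 12.5, 13.3 and 11.6 FPKM in miR-628-3p vector libraries, against 40.3, 42.7 and 40.8 FPKM in empty vector libraries. The share of PLAT in this sum was 51.8%, 57.2% and 59.6% with miR-628-3p, against 80.1%, 80.5% and 79.8% with the empty vector. PLAT thus made up most of the activator messenger RNA in both groups, but less of it with miR-628-3p. With 3 libraries against 3 the smallest p of a two-sided exact permutation test is 0.1, and both differences gave it.

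The ratio of SERPINE2 to the 2 activators was 14.2 ± 0.627 with the miR-628-3p vector and 3.88 ± 0.285 with the empty vector in MHCC97H (SD, n = 3 each, exact permutation p = 0.1). The ratio of urokinase to its receptor was 0.331 ± 0.0302 with the miR-628-3p vector and 0.486 ± 0.0238 with the empty vector, without overlap (exact permutation p = 0.1). Over all genes tested in MHCC97H 30.0% had groups that did not overlap.

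In Huh7 the sum of PLAT and PLAU was 2.45 ± 0.0591 FPKM in mimic libraries and 2.88 ± 0.271 FPKM in control libraries, without overlap (exact permutation p = 0.1). The share of PLAT was 33.0 ± 2.58% in mimic libraries and 28.2 ± 7.50% in control libraries, with overlapping libraries (exact permutation p = 0.5). Urokinase was thus the more abundant activator in Huh7 and tissue plasminogen activator in MHCC97H. The ratio of urokinase to its receptor was 1.56 ± 0.200 in mimic libraries and 1.89 ± 0.470 in control libraries, which overlapped (exact permutation p = 0.4). SERPINE2 stood at 17.3 ± 0.424 times the activators in mimic libraries and 14.5 ± 1.58 times in control libraries, without overlap (exact permutation p = 0.1). Over all genes tested in Huh7 48.8% had groups that did not overlap. These sums and ratios were not corrected for GC content and length. After that correction the log2 fold changes of PLAU and SERPINE2 in Huh7 were -0.06 and -0.07 (limma adjusted p = 0.713 and 0.529).

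**Figure D4:**
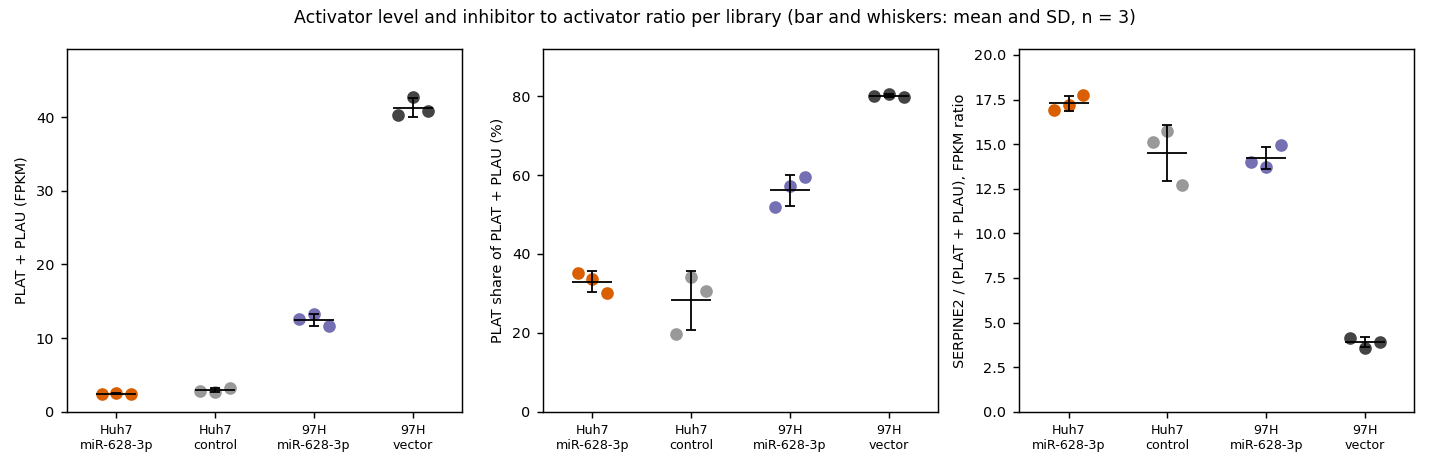
Sum of PLAT and PLAU in FPKM, share of PLAT in that sum in percent, and ratio of SERPINE2 to that sum, by library. The horizontal axes give the 4 groups, points are libraries, and bars with whiskers are the mean and SD of 3. In MHCC97H the sum averaged 12.5 FPKM with the miR-628-3p vector and 41.3 FPKM with the empty vector, and the SERPINE2 ratio averaged 14.2 with the miR-628-3p vector and 3.88 with the empty vector.

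Around the 7 genes, 72 others of the system were followed in 7 lists: further inhibitors, plasminogen receptors and cofactors, partners and clearance receptors of the urokinase receptor, plasmin substrates and downstream factors, contact system activators, the LY6 and PLAUR domain family, and neighbouring serpins. In MHCC97H 35 were tested, 5 were called higher and 3 lower, with a median log2 fold change of -0.06 (5.37% of all genes called, median -0.04). In Huh7 42 were tested, 3 were called higher and 8 lower, with a median of -0.02 (21.1% of all genes called, median -0.05). After the GC and length correction 16 of these genes were called by limma in MHCC97H, beside 1981 of all 12630 genes tested. In Huh7 0 were called, beside 1 of all 12452 genes tested. There 11 of the list genes had an unadjusted limma p under 0.05. That share was not counted over all genes, so no excess is read from it. Before the correction 18 of the 42 had such a p, beside 5236 of all 12508 genes tested. By limma voom on the recovered reads, without that correction, 10 were called in MHCC97H and 14 in Huh7. Over all genes voom called 739 of 12670 in MHCC97H and 3537 of 12508 in Huh7.

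Among the endocytic receptors that clear activator and inhibitor complexes, LRP1 rose in MHCC97H, to 30.4 ± 2.04 FPKM with the miR-628-3p vector against 17.1 ± 2.17 FPKM with the empty vector (log2 fold change 0.80, limma adjusted p = 0.00581). This call held without each library in turn (adjusted p between 0.00711 and 0.0418). SORL1, a sorting receptor that binds urokinase and its receptor complexes, had 3.30 ± 0.345 FPKM with the miR-628-3p vector and 2.13 ± 0.0555 FPKM with the empty vector (0.45, adjusted p = 0.0305). ITGA5, the α5 integrin chain of the fibronectin receptor, had 19.9 ± 2.71 FPKM with the miR-628-3p vector and 14.1 ± 1.04 FPKM with the empty vector (0.46, adjusted p = 0.0485). Of 12 tested genes in this list 3 were called higher and 0 lower, beside 2.32% higher and 3.05% lower over all genes tested. The lists were chosen with earlier results of these data known. The SORL1 call was lost in 4 of the 6 fits that left out a library and the ITGA5 call in 5 of 6.

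LRP1 was also 1 of 5 among 71 list genes searched (7.042%) whose longest 3′ UTR held the seed match, shown with that of VLDLR, a related receptor of the same list, in capitals (GENCODE release 29, GRCh38).
LRP1, chr12:57149899-57149926, plus strand: cctgagtaggaTTACTAGacagactgtc
VLDLR, chr9:2657215-2657242, plus strand: tcctagaattcTTACTAGtgaaatctta
LRP1, called higher in MHCC97H as given above, had 10.5 ± 1.86 FPKM with the mimic and 12.2 ± 0.453 FPKM with the control in Huh7 (log2 fold change -0.21, limma adjusted p = 0.197). VLDLR had 2.47 ± 0.424 FPKM with the miR-628-3p vector and 2.80 ± 0.154 FPKM with the empty vector, a log2 fold change of -0.14 (limma adjusted p = 0.506). In Huh7 VLDLR had 2.03 ± 0.162 FPKM with the mimic and 1.88 ± 0.129 FPKM with the control (0.07, adjusted p = 0.517). The other 3 were F11, LYPD3 and LYPD6. F11, the zymogen of coagulation factor XI, had a log2 fold change of 0.22 in Huh7 (adjusted p = 0.0742), and LYPD6 had 0.23 (adjusted p = 0.0626), so neither passed there. Both were at 0 in MHCC97H and not tested, and LYPD3 was under the level for a test in both lines. Any part of the seed match in these values was not tested.

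Of the plasmin substrates and downstream factors in MHCC97H, 1 of 9 tested was called higher and 2 lower. Over all genes tested 2.32% were called higher and 3.05% lower. FGB, a chain of fibrinogen, fell to 2.12 ± 0.0678 FPKM with the miR-628-3p vector against 3.86 ± 0.278 FPKM with the empty vector (log2 fold change -0.64, limma adjusted p = 0.00634). FGG, another chain, fell to 1.66 ± 0.301 FPKM with the miR-628-3p vector against 3.33 ± 0.504 FPKM with the empty vector (-0.70, adjusted p = 0.0228). FN1, the matrix protein fibronectin, had 2249 ± 158 FPKM with the miR-628-3p vector and 1763 ± 75.1 FPKM with the empty vector (0.35, adjusted p = 0.0459). The FN1 call was lost in 5 of the 6 fits that left out a library. The FGB call held in 5 of these fits and the FGG call in 3. The fibrinogen chains fell in the group whose summed hepatocyte markers were higher, and the part of those markers in it was not tested.

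Among serpins beyond the 7, SERPINB8, an intracellular inhibitor of furin, fell in MHCC97H, to 1.31 ± 0.232 FPKM with the miR-628-3p vector against 2.65 ± 0.258 FPKM with the empty vector (log2 fold change -0.67, limma adjusted p = 0.0156). SERPINB9, the granzyme B inhibitor, had 6.09 ± 0.354 FPKM with the miR-628-3p vector and 4.56 ± 0.280 FPKM with the empty vector (0.35, adjusted p = 0.0440). The SERPINB8 call was lost in 4 of the 6 fits that left out a library, and the SERPINB9 call in 5. Of the 6 plasminogen receptors and cofactors tested in MHCC97H, S100A10, a partner of annexin A2 that binds plasminogen, had the smallest adjusted p, 0.196, with 1982 ± 219 FPKM with the miR-628-3p vector and 1682 ± 52.0 FPKM with the empty vector.

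In Huh7 11 list genes were called before the GC and length correction, beside 2642 of all 12508 genes tested. After it 0 were called, beside 1 of all 12452 genes tested. The changes were small. TGFB1, a cytokine that plasmin can release from its latent form, had 9.35 ± 0.541 FPKM with the mimic and 12.2 ± 0.785 FPKM with the control (log2 fold change -0.35, limma adjusted p = 0.0279). LRPAP1, the chaperone of LRP1, had 12.7 ± 0.198 FPKM with the mimic and 15.5 ± 0.569 FPKM with the control (-0.27, adjusted p = 0.0279). Integrin chains did not move one way: ITGAV (0.34) and ITGB1 (0.23) were called higher and ITGB5 (-0.21) lower (adjusted p = 0.0348, 0.0313 and 0.0314).

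S100A10 and ENO1, plasminogen receptors at the cell surface, had log2 fold changes of -0.22 and -0.21 in Huh7 (limma adjusted p = 0.0462 for both), and S100A10 was at 0.01 after the correction. ENO1 has a processed pseudogene that could share its reads. SERPINA5, the protein C inhibitor, which also inhibits urokinase, had 54.1 ± 1.89 FPKM with the mimic and 60.9 ± 2.29 FPKM with the control (-0.17, adjusted p = 0.0498). FGB had 801 ± 38.6 FPKM with the mimic and 688 ± 29.7 FPKM with the control (0.22, adjusted p = 0.0431), a direction opposite to that in MHCC97H. Each Huh7 call named here was lost in at least 4 of the 6 fits that left out a library. Over all genes these fits called 0 to 1661, against 2642 with all libraries, so such a loss is not particular to these genes.

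**Figure D5:**
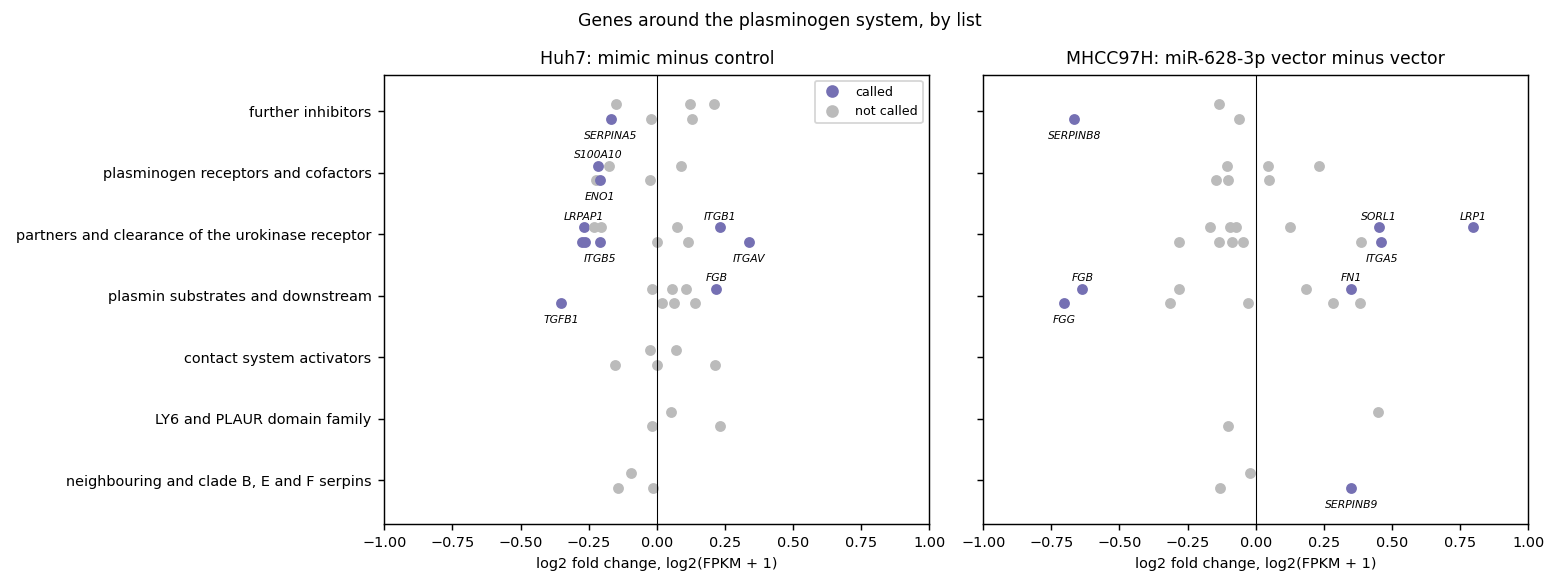
Log2 fold changes of tested genes in the 7 lists around the plasminogen system, in Huh7 and in MHCC97H. The horizontal axes give log2 fold change on the log2(FPKM + 1) scale, rows are lists, points are genes, coloured where the adjusted p is under 0.05, and up to 4 called genes per list carry their names. LRP1 at 0.80 and FGG at -0.70 lay furthest out in MHCC97H.

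Profiles were last compared across the 12 libraries, as the root mean square difference of log2(FPKM + 1) after each gene was centred on its own mean, over 12411 genes. The nearest to PLAT were CD79A (0.289), CST1 (0.353) and PLA2G4C (0.444), against a root mean square of 1.76 for PLAT itself. CST1, which encodes a secreted cystatin, averaged 5.87 FPKM with the miR-628-3p vector and 30.3 FPKM with the empty vector in MHCC97H and was at 0 in Huh7. The nearest to PLAU were CD27-AS1 (0.103), KCTD15 (0.106) and PPP1R15A (0.110), to PLAUR EPDR1 (0.0939), GRAMD1B (0.0982) and DDR1 (0.0987), to SERPINE2 FANCC (0.0474), SSTR5-AS1 (0.0567) and BCL2L15 (0.0602), and to SERPINF2 ADORA2A-AS1 (0.0779), GPX3 (0.0936) and FURIN (0.0994). No source used here says if reads were counted by strand, so reads of the 3 antisense genes cannot be told apart from those of their partners. All these profiles share the 12 libraries and are mostly set by the difference between the lines, so the measure is a description only.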

How the data were processed

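Messenger RNA was measured in 12 libraries, 3 in each of 4 groups taken from the sample titles. Per the labels, poly-A RNA was selected, dUTP marked the second strand and reads were paired. The submitters' processing notes name HISAT2, HISAT, HTSeq, GRCh38 and hg38, without versions. The deposited table holds FPKM, which the authors scaled to exon length and to the reads counted in each library, with no further scaling. FPKM times exon length gave whole reads within 0.01 for 100% of values, so reads were worked back for depth.

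Each comparison was fitted with limma 3.58.1 (R 4.3.3) on log2(FPKM + 1), which understates the change of low genes, over genes with a mean of at least 1 FPKM, with eBayes and a mean-variance trend. A gene was called at a Benjamini-Hochberg adjusted p under 0.05 over all genes tested. Nothing in the labels says that the libraries came from separate cultures, so p values measure only the spread between them. Ratios were tested by exact two-sided permutation. Members and lists were chosen with earlier results of these data known. Named list genes are at most 4 called genes per list and comparison, smallest p first, and the 3 most alike profiles per gene. Genes with a seed match, metalloproteases, SERPINB5 and SERPINB7 are named beyond this rule. A further listed gene is not reported here. The fits were tested on simulated data without shifts by GC content or length, which says nothing about calls lost under that correction. Alternatives changed the pseudocount, filter, scaling, variance model, gene types and base composition, used limma voom on reads, and left out libraries. Python 3.11.15, numpy 2.4.6, pandas 2.3.3 and matplotlib 3.10.9 were used, with RefSeq and GENCODE release 29 sequences.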

Additional observations from a re-analysis of the deposited data

Results flagged for a closer look

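The interaction term of limma over the 12 libraries, the log2 effect of miR-628-3p in MHCC97H minus that in Huh7, passed for 1 of the 5 genes tested and for 13 of 44 list genes tested, 8 higher and 5 lower. Over all 13171 genes tested 12.9% passed, 7.43% higher and 5.43% lower. Line and delivery cannot be told apart. PLAT (-2.10, adjusted p = 4.97e-06) and 4 of the 13 list genes reached 1 FPKM in 1 line only, so their values mostly restate the change in that line and do not show that the lines respond differently. Of these 4, SORL1 (0.49, adjusted p = 0.00988) had 0.149 ± 0.0198 FPKM with the mimic and 0.180 ± 0.00819 FPKM with the control in Huh7. VTN, the matrix ligand vitronectin (0.47, adjusted p = 0.0191), had 0.284 ± 0.0147 FPKM with the miR-628-3p vector and 0.128 ± 0.0796 FPKM with the empty vector in MHCC97H. In Huh7 VTN had 103 ± 9.46 FPKM with the mimic and 125 ± 4.58 FPKM with the control. Its log2 fold change there was -0.27 (limma adjusted p = 0.0376), and it was not called after GC and length correction. MMP2 (0.38, adjusted p = 0.0380) and MMP1 (-0.28, adjusted p = 0.0472) were at or near 0 in Huh7.

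The other 9 list genes were tested in both lines. The effect of miR-628-3p, not the level, was lower in MHCC97H than in Huh7 for SERPINB8 (-0.88, limma adjusted p = 0.00238). It was also lower for the 3 fibrinogen chains FGB (-0.85, adjusted p = 0.000146), FGG (-0.77, adjusted p = 0.00771) and FGA (-0.46, adjusted p = 0.00353). FGA had 4.35 ± 0.244 FPKM with the miR-628-3p vector and 5.65 ± 0.254 FPKM with the empty vector in MHCC97H, and 563 ± 18.3 FPKM with the mimic and 510 ± 4.47 FPKM with the control in Huh7, and was called in neither line.

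The effect of miR-628-3p, not the level, was higher in MHCC97H than in Huh7 for the clearance receptor LRP1 (1.00, limma adjusted p = 0.00404). The same held for ITGA5 (0.69, adjusted p = 0.0107), TGFB1 (0.64, adjusted p = 0.0160), SERPINB9 (0.45, adjusted p = 0.0111) and S100A10 (0.45, adjusted p = 0.0279). The S100A10 call was lost in 6 of 23 alternatives (adjusted p up to 0.0781): with no expression filter, and without mimic library 1, Huh7 control library 1, miR-628-3p vector library 1, or empty vector library 1 or 3. The VTN call was lost in 5 of 23 (adjusted p up to 0.0666): with quantile normalization, limma voom, and GC and length correction, and without Huh7 control library 1 or empty vector library 1. The calls of PLAT, SORL1, SERPINB8, SERPINB9, FGA, FGB, FGG, LRP1, ITGA5 and TGFB1 held in every alternative that could test them. Those of MMP1 and MMP2 were not followed through the alternatives.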

How the results depend on the processing

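The fall of PLAT was called in all 18 alternatives in MHCC97H (log2 fold change -2.24 to -2.04, adjusted p up to 0.00240) and in all 23 for the difference between the lines (-2.26 to -1.99, adjusted p up to 0.000323), where it was tested through MHCC97H alone. In MHCC97H 2 of the 7 genes were called, 3 after GC and length correction, through SERPINE2, and, through PLAU, 1 with no expression filter and between 1 and 2 with a library left out. In Huh7 the count of 1, SERPINF2, was 0 with no expression filter, median rescaling, eBayes without the trend, the joint fit, the replicate block, and GC and length correction (adjusted p = 0.124, 0.0599, 0.0589, 0.0942, 0.0634 and 0.915), and between 0 and 1 with a library left out. For the difference between the lines 1 gene was called, 3 after GC and length correction, and between 1 and 2 with a library left out (SERPINF2 at 0.41, adjusted p = 0.0169, without MHCC97H miR-628-3p library 3). The 5 calls between the control libraries held in all 17 alternatives. The cause of these changes was not tested.

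Signs reversed only among values that did not pass in that setting: after GC and length correction PLAUR was at 0.16 in Huh7, at 0.015 in MHCC97H and at -0.14 for the difference, SERPINE2 at -0.073 and S100A10 at 0.014 in Huh7, and with quantile normalization PLAUR was at -0.0068 for the difference. With a library left out PLAUR lay between -0.12 and 0.057 in MHCC97H and between -0.075 and 0.099 for the difference.

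Over all genes, 2642 were called in Huh7, but 7 with no expression filter, 1694 without the trend, 866 in the joint fit, 1187 with the replicate block, 1 after GC and length correction and 0 to 1661 with a library left out. In MHCC97H 680 were called, against 326 with no filter, 1672 in the joint fit, 1981 after the correction and 142 to 1604 with a library left out. For the difference 1694 were called, against 967 with no filter, 1106 with the block, 2007 after the correction and 637 to 4670 with a library left out. In Huh7 844 genes were called higher and 1798 lower, against 1141 and 1158 with median rescaling and 1352 and 1394 with quantile normalization; in MHCC97H the numbers were 294 and 386, against 384 and 330, and 417 and 324.

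Replicate numbers did not pair the libraries: deviations of libraries with the same number correlated at -0.0146, -0.0751 and 0.0369 in Huh7 and at -0.0879, 0.305 and 0.135 in MHCC97H. With the replicate block 0 of the 7 genes were called in Huh7, 2 in MHCC97H and 1 for the difference. No block could be fitted between the control libraries. Depth limits PLG and SERPINB2, at 0 or 1 read.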

Other observations

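Metalloproteases that act downstream of plasmin were measured too. MMP2 had 4.05 ± 0.297 FPKM with the miR-628-3p vector and 2.88 ± 0.352 FPKM with the empty vector in MHCC97H and was at 0 in all Huh7 libraries. MMP1 had 8.02 ± 0.159 FPKM with the miR-628-3p vector and 9.96 ± 0.587 FPKM with the empty vector in MHCC97H. Neither passed in MHCC97H (limma adjusted p = 0.0625 for MMP2 and 0.0595 for MMP1). MMP3 was at 0 in every library.

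Near SERPINB2, which was not detectable, other serpins of the same family had low levels in MHCC97H. These were picked out after their values were seen and lay under the level needed for a test. SERPINB7 had 0.431 ± 0.0354 FPKM with the miR-628-3p vector and 0.929 ± 0.0944 FPKM with the empty vector. SERPINB5 had 0.241 ± 0.0542 FPKM with the miR-628-3p vector and 0.0292 ± 0.0253 FPKM with the empty vector.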
